A study of Gallus gallus with 9 samples.

Results

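The insulin-like growth factor (IGF) axis was followed through 7 listed genes in cultured chicken preadipocytes: the ligand IGF1, the receptors IGF1R and INSR, the binding proteins IGFBP2, IGFBP3 and IGFBP7, and the receptor substrate IRS1. Genes were taken by their symbol in the array annotation, and each was represented by the probe set (a group of short probes read as one signal) with the highest mean over all arrays. This gave 6 of the 7 genes, among 13009 named genes on the array, and IRS1 was not analysed here. The cells were preadipocytes from the abdominal fat of laying hens aged 19 wk, grown to confluence and then cultured for 96 hr. In the DMIOA+20S group the medium held dexamethasone at 500 nM, 3-isobutyl-1-methylxanthine (IBMX) at 0.5 mM, insulin at 20 µg/mL, oleic acid at 300 µM and 20(S)-hydroxycholesterol, an oxysterol, at 5 µM. The DMIOA group received the same agents without the oxysterol, and the control group received none of them. The medium of all 3 groups contained fetal bovine serum, and insulin, itself a ligand of INSR, was therefore added to DMIOA+20S and DMIOA cells but not to control cells. Each group had 3 arrays, named here by title and replicate number, and since the sources used here tie no array to a hen or a culture, the p-values measure only the spread between arrays.

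IGF1 and insulin are related hormones that bind the tyrosine kinase receptors IGF1R and INSR, which pass the signal through receptor substrates to phosphatidylinositol 3-kinase (PI3K) and AKT and through RAS to MAP kinases. Secreted binding proteins hold IGFs in the extracellular space, and proteases such as pregnancy-associated plasma protein A (PAPPA) release them again. In mammals, IGF1R is the more abundant of both receptors in preadipocytes and INSR in mature adipocytes, and insulin or IGF1 is a standard part of adipogenic media.

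The array titles did not follow the similarity of the arrays, so every value is given by title and also by closest set. Set A held DMIOA 1, control 1 and control 2, set B held DMIOA+20S 1, DMIOA+20S 2 and DMIOA 2, and set C held the 3 arrays titled replicate 3. Over 38439 probe sets, Pearson's r was 0.994 to 0.997 within set A, 0.993 to 0.997 within set B and 0.993 to 0.996 within set C, against 0.97 to 0.976 between set A and the other 6 arrays. Arrays of one title group correlated at 0.971 to 0.997, and arrays of different title groups at 0.97 to 0.997. Sets B and C were less clearly divided from each other, with r of 0.989 to 0.995 between them, and the closest array to DMIOA+20S 2 was DMIOA+20S 3 of set C at 0.995. The adipocyte gene FABP4, which encodes a fatty acid carrier, read 10.22 on DMIOA 1, 10.04 on control 1 and 10.23 on control 2, and 13.39 to 13.73 on the other 6 arrays, control 3 included. It is one of 8 measured adipocyte markers. At any gap, 4 of the 8 were lower on every set A array than on any other, and 4 were not. By at least 1 log2 unit 2 were lower, beside 1.2% of all probe sets. Because the sets were seen in these same values, they are described by single values and ranges and were not tested.

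**Figure D1:**
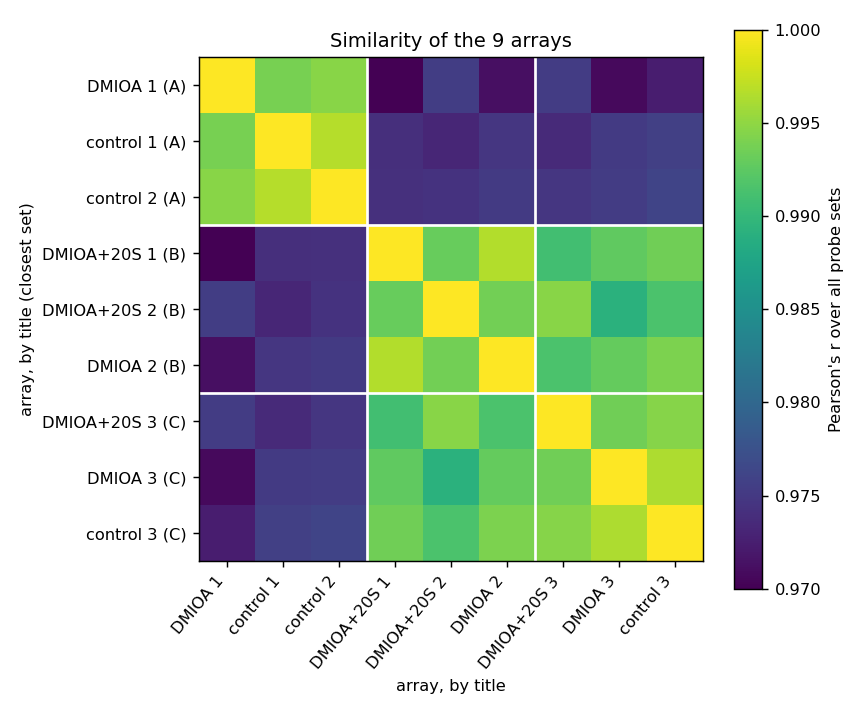
Pearson's r over 38439 probe sets between each pair of the 9 arrays, ordered by closest set (white lines). The 3 arrays of set A, among them DMIOA 1, form the block that is furthest from the rest, with r of 0.97 to 0.976 to the other 6.

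The cell type markers matched the label in part. All 12 listed mesenchymal and preadipocyte markers were measured, and only 1 of them, the preadipocyte receptor PDGFRA, stayed under 4 on every array. PDGFRA was at most 2.15, near the array medians of 2.11 to 2.14. The related PDGFRB read 6.64 to 7.13 over the 9 arrays, and COL1A1, a fibrillar collagen, 13.80 to 14.11. The summed linear level of the 8 measured adipocyte markers of 9 was 1630 to 1901 in set A, 13386 to 14611 in set B and 11269 to 11678 in set C. That sum was carried mainly by FABP4, the brightest of the 8 on every array. CIDEC, a lipid droplet protein, was also lower on set A, at 3.10 to 3.41 against 7.73 to 9.01 elsewhere, but added little to the sum. PLIN1 and ADIPOQ were also lower throughout set A, but with CEBPA and DGAT2 they stayed under 4 on every array. PPARG, the main adipogenic transcription factor, overlapped and went the other way, with 9.30 on DMIOA 1 as its highest value and 7.95 on DMIOA 3 as its lowest, and LPL (lipoprotein lipase), at 4.82 to 6.51, also overlapped. On set A, PPARG was the brightest of the 8 after FABP4, so it added to the adipocyte sum as well. For the 13 measured macrophage and leukocyte markers of 14, the sum was 454.8 to 594.3 in set A, 225.8 to 259.4 in set B and 236.1 to 315.8 in set C, and 8 of the 13 were higher on every set A array than on any other. The 7 endothelial markers summed to 149.6 to 174.4 in set A, 47.2 to 62.1 in set B and 63.0 to 105.8 in set C, but 2 of the 7 were higher throughout set A, 1 was lower and 5 stayed under 4 on every array. The 3 measured mesothelial markers of 6 summed to 2834 to 3145 in set A, 3249 to 3853 in set B and 2185 to 2360 in set C. These marker counts are at any gap, for which the share of all probe sets was not counted. By at least 1 log2 unit, set A stood above the rest for 2 of the 13 macrophage and leukocyte markers and 0 of the 7 endothelial ones. Over all probe sets that share was 1.82%. Set A stood as far below for 2 of the 8 adipocyte markers, beside 1.2% of all probe sets.

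In the array annotation the members carry the Entrez gene IDs 418090 (IGF1), 395889 (IGF1R), 420133 (INSR), 396315 (IGFBP2), 420790 (IGFBP3) and 422620 (IGFBP7). IGF1, the ligand, was dim throughout. It read 1.44, 1.5 and 1.43 on DMIOA+20S arrays 1 to 3, 2.29, 1.32 and 1.58 on DMIOA arrays 1 to 3, and 2.5, 2.92 and 1.5 on control arrays 1 to 3, all on the log2 scale. The 3 arrays of set A were the highest, with the lowest of them 0.71 above the highest of the other 6. All DMIOA+20S arrays lay below all control arrays, with means of 1.46 ± 0.038 in DMIOA+20S and 2.31 ± 0.73 in control (SD, n = 3 each), but control 3 exceeded DMIOA+20S 2 by less than 0.01. IGF1 did not reach a log2 value of 4 on any array, a level at which the GCRMA background model compresses differences. Macrophages and leukocytes also make IGF1 in mammals. Of their 13 measured markers, 2 stood at least 1 log2 unit above the rest in set A, beside 1.82% of all probe sets. The other markers did not, and the part of these cells in the IGF1 signal was not tested. In such bulk RNA, fewer cells of a type and less RNA per cell cannot be told apart.

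IGF1R, the type 1 receptor, was well expressed and had the most graded pattern of the members. It read 7.15, 6.75 and 6.97 on DMIOA+20S arrays 1 to 3, 7.63, 7.15 and 7.46 on DMIOA arrays 1 to 3, and 7.93, 7.87 and 7.46 on control arrays 1 to 3. Every DMIOA+20S array lay below every control array, and the DMIOA arrays overlapped both of the other groups, with DMIOA 2 level with DMIOA+20S 1. Means were 6.96 ± 0.20 in DMIOA+20S, 7.41 ± 0.25 in DMIOA and 7.75 ± 0.26 in control (SD, n = 3 each). By closest set the arrays ran 7.63 to 7.93 in set A, 6.75 to 7.15 in set B and 6.97 to 7.46 in set C, so set A lay above the rest by 0.18 only.

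INSR, the insulin receptor, was low on set A, where IGF1R was high. On the other 6 arrays both were lowest on DMIOA+20S 2. It read 4.43, 4.17 and 4.27 on DMIOA+20S arrays 1 to 3, 3.04, 5.02 and 4.73 on DMIOA arrays 1 to 3, and 3.29, 3.05 and 4.70 on control arrays 1 to 3. The 3 set A arrays were the lowest, and the highest of them lay 0.88 below the lowest of the other 6. As those 3 values are under 4, where GCRMA compresses differences, no fold is given for this gap. The title groups overlapped, since the control and DMIOA groups each held both low and high arrays. Of the 8 adipocyte markers, 2 (FABP4 and CIDEC) were lower on these 3 arrays by at least 1 log2 unit, beside 1.2% of all probe sets. PLIN1 and ADIPOQ, under 4 on every array, were lower by 0.06 and 0.05 only, and the other 4 were not. The part of these markers in the INSR signal was not tested. The gene had 3 further probe sets, all dim, which read between 1.30 and 2.24. On the brightest of them the set A arrays were again the lowest, at 1.70 to 1.98 against 2.04 to 2.24. On the others set A overlapped the rest, so the low values on set A were not seen on every probe set.

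Among the binding proteins, IGFBP7, a secreted protein that binds IGFs weakly and is abundant in vessel walls and stroma, varied most of all members. It read 7.06, 7.67 and 7.49 on DMIOA+20S arrays 1 to 3, 10.49, 7.23 and 7.55 on DMIOA arrays 1 to 3, and 10.42, 10.62 and 7.51 on control arrays 1 to 3. The set A arrays all exceeded 10.4, and no other array exceeded 7.7. The gap between the lowest set A array and the highest other array was 2.75 log2 units, or 6.74-fold, and the whole range was 3.56 log2 units, or 11.8-fold. DMIOA 1 stood among the control arrays and control 3 among the treated ones, so the SD was 1.79 in DMIOA and 1.74 in control, against 0.31 in DMIOA+20S. Of the 7 endothelial markers, CDH5 (vascular cadherin) was also higher on set A, reading 6.74 to 7.14 there and 3.94 to 6.15 on the other arrays, whereas PECAM1 overlapped at 3.57 to 5.05 on set A and 3.00 to 4.74 elsewhere, and the other 5 stayed under 4. The part of these cells in the IGFBP7 signal was not tested.

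IGFBP2, a high-affinity IGF carrier that is made by preadipocytes in mammals, varied little. It read 8.27, 8.21 and 7.97 on DMIOA+20S arrays 1 to 3, 7.73, 8.36 and 7.86 on DMIOA arrays 1 to 3, and 7.86, 7.69 and 8.24 on control arrays 1 to 3. All 3 title groups overlapped, and set A lay below the other 6 arrays by less than 0.01. The total range was 0.67.

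IGFBP3, the main IGF carrier of mammalian serum, was the flattest member. It read 3.51, 3.51 and 3.49 on DMIOA+20S arrays 1 to 3, 3.51, 3.56 and 3.31 on DMIOA arrays 1 to 3, and 3.51, 3.55 and 3.51 on control arrays 1 to 3. Its range of 0.25 and its level below 4 on all 9 arrays leave no pattern that could be read. In the RefSeq annotation (GRCg7b), IGFBP3 lies beside IGFBP1 and IGFBP2 beside IGFBP5, with 0 protein-coding genes between the genes of either pair.

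**Figure D2:**
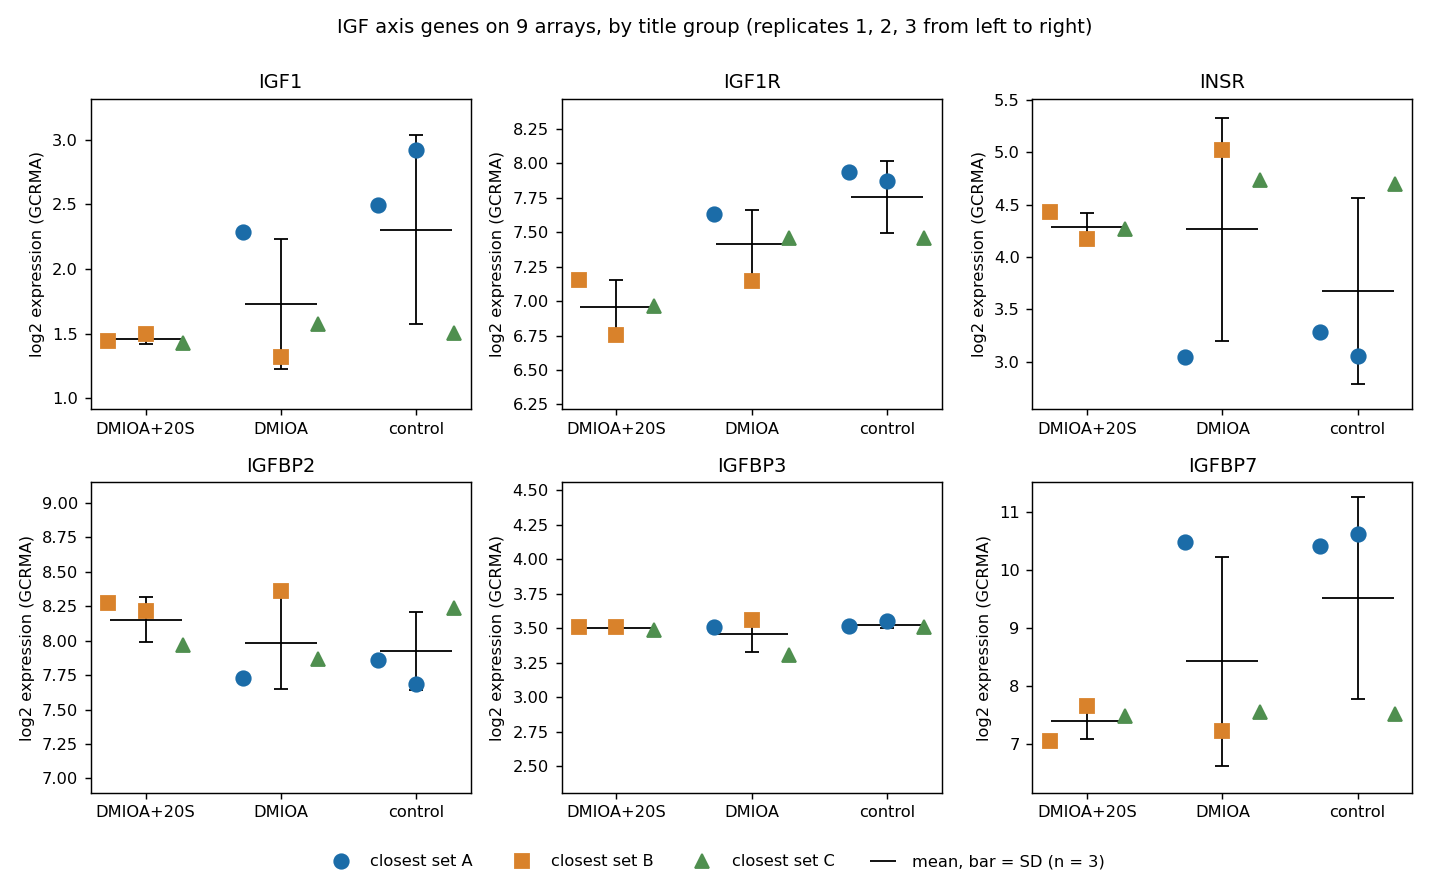
Log2 expression of the 6 measured IGF axis genes on each array, by title group with the mean and SD (n = 3), and with colour and shape giving the closest set. For IGF1, IGFBP7 and INSR the set A symbols stand apart from the rest, and DMIOA 1 sits with control 1 and control 2. Each panel has its own log2 axis.

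By title, the probe set tests compared DMIOA+20S with control, DMIOA+20S with DMIOA, and DMIOA with control in limma over all 9 arrays, with Benjamini-Hochberg adjustment across all 38439 of them, and a call needed both an adjusted p under 0.05 and a difference of at least 2-fold. None of the 6 members was called in any of the 3 comparisons. Over all probe sets, 0.0052% were called in DMIOA+20S against control, 0% in DMIOA+20S against DMIOA and 0% in DMIOA against control. The first of these shares was 2 probe sets, both lower in DMIOA+20S. At an unadjusted p under 0.05 these comparisons had 3880, 1099 and 905 probe sets, or 10.1%, 2.86% and 2.35%.

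The comparison of DMIOA+20S with control held the largest difference of each member except IGFBP3. IGF1R was lower in DMIOA+20S by a log2 difference of -0.80 (SE 0.18, 95% interval -1.21 to -0.39), with a limma p of 0.0020 and an adjusted p of 0.49. IGF1 differed by -0.85 (95% interval -1.68 to -0.01, limma adjusted p = 0.49, 0.047 before adjustment), and IGFBP7 by -2.11 (SE 1.02, 95% interval -4.45 to 0.22, limma adjusted p = 0.50). The groups did not overlap for 2 of the 6 members, IGF1 and IGF1R, against 13.5% of all probe sets. INSR differed by 0.61 (-0.69 to 1.91), IGFBP2 by 0.23 (-0.23 to 0.68) and IGFBP3 by -0.02 (-0.23 to 0.18). Without control 3, the difference was -3.12 for IGFBP7, -1.25 for IGF1 and 1.12 for INSR, with limma adjusted p-values of 0.14, 0.12 and 0.31. Without control 2 they were -1.56, -0.54 and 0.30, the other end of the values with 1 array left out for IGFBP7, IGF1 and INSR.

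In DMIOA+20S against DMIOA, IGF1R was lower by a log2 difference of -0.46 (SE 0.18, 95% interval -0.87 to -0.05), at a limma p of 0.034 and an adjusted p of 0.98. The 2 groups overlapped for all 6 members, while 6.91% of all probe sets had no overlap. IGFBP7 differed by -1.02 (-3.36 to 1.31) and IGF1 by -0.27 (-1.11 to 0.56), with limma adjusted p-values of 0.98. Both values rested on DMIOA 1, and without it each was 0.01. INSR differed by 0.02 (-1.28 to 1.32), and by -0.59 without DMIOA 1. IGFBP2 differed by 0.17 (-0.29 to 0.63) and IGFBP3 by 0.04 (-0.16 to 0.25).

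In DMIOA against control, IGFBP7 differed by -1.09 (SE 1.02, 95% interval -3.43 to 1.25), INSR by 0.59 (-0.72 to 1.89), IGF1 by -0.58 (-1.41 to 0.26) and IGF1R by -0.34 (-0.75 to 0.07), each with a limma adjusted p of 0.99. IGFBP2 at 0.06 (-0.40 to 0.52) and IGFBP3 at -0.07 (-0.27 to 0.14) were near 0. No member had separate groups, against 5.25% of all probe sets. Without DMIOA 1 the IGFBP7 difference was -2.12 and that of INSR 1.20, and without control 3 they were -2.09 and 1.09, with limma adjusted p-values of 0.55 to 0.60. Without DMIOA 2 they were instead -0.50 and 0.21. Leaving out 1 array at a time gave -0.98 (without control 3) to -0.27 (without control 2) for IGF1 and -0.49 (without control 3) to -0.21 (without DMIOA 2) for IGF1R. The titles write "replicate 3" in full but shorten the word for numbers 1 and 2, and with replicates 1 and 2 only the IGFBP7 difference was -3.16 in DMIOA+20S against control, -1.5 in DMIOA+20S against DMIOA and -1.66 in DMIOA against control, while the 3 replicate 3 arrays read 7.49 to 7.55. The intervals of IGFBP7 in all 3 comparisons spanned over 4 log2 units, so neither a several-fold difference nor its absence was shown.

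**Figure D3:**
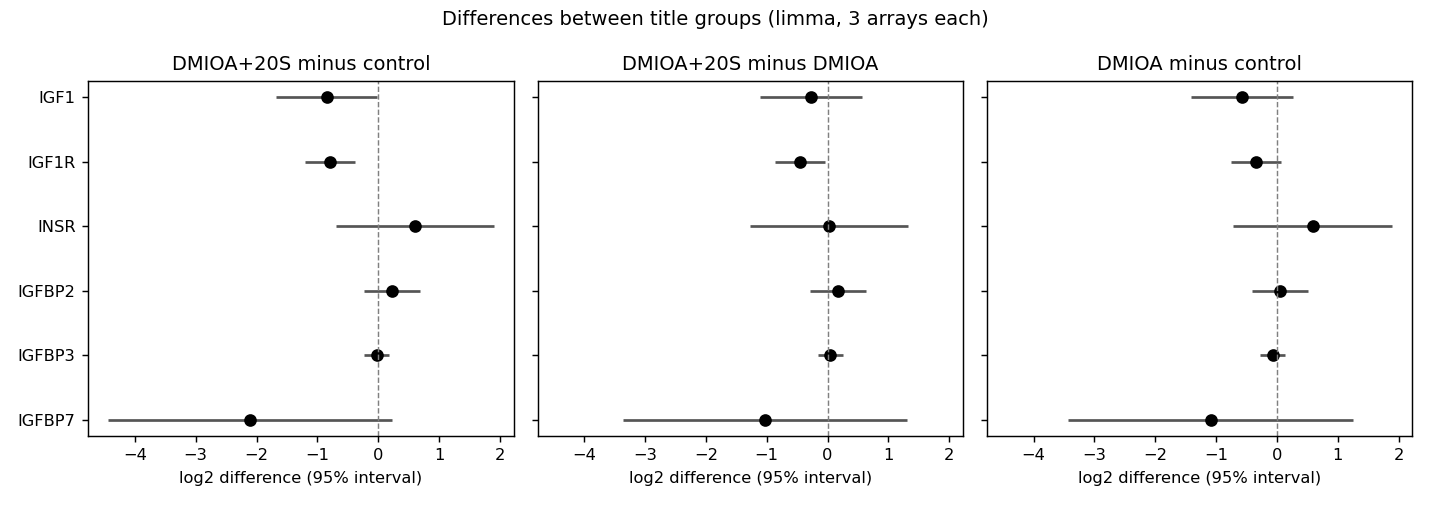
Log2 difference between title groups with its 95% interval for the 6 measured members, from limma with 3 arrays per group. The intervals of IGF1R are short and lie below 0 in DMIOA+20S minus control and DMIOA+20S minus DMIOA, although neither was called, whereas those of IGFBP7 and INSR are wide and cross 0 in every panel.

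By closest set, IGFBP7 was the one member that stood at least 1 log2 unit above all other arrays in set A, 1 of 6 measured, and 1.82% of all probe sets did so. Among the 12169 probe sets that reached 4 on at least 3 arrays, which keep 4 of the 6 members, the share was 5.28%. None of the members stood as far below in set A, where 1.2% of all probe sets did, or 3.65% of the brighter ones. None was set apart in set B, with 0.0442% of probe sets above and 0.0676% below, or in set C, with 0.133% above and 0.0624% below. Within the sets, DMIOA 1, DMIOA+20S 2 and DMIOA+20S 3 shared a further trait, chosen after the values were seen. Each was the lowest of its set for IGF1R and INSR, 2 of 6 members, against 11.5% of all probe sets, and the highest of its set for 0 members, against 10.3%. For INSR in set A this rested on 3.04 on DMIOA 1 against 3.05 on control 2, nearly a tie. Both values are under 4, where GCRMA compresses differences. In the wider pathway list of 57 genes the balance was the other way, with 4 genes (7.02%) lowest and 10 (17.5%) highest on these 3 arrays. Across all probe sets, DMIOA 1 correlated at 0.975 with DMIOA+20S 2 and also with DMIOA+20S 3, and at 0.97 to 0.972 with the other 4 arrays of sets B and C.

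The genes with the most similar course over the 9 arrays were sought among 3192 named genes with a range of at least 1 log2 unit, by the root mean square difference of values centred on each gene's mean. For IGFBP7 they were TP53I11 at 0.13, MYLK (the myosin light chain kinase of smooth muscle) at 0.16 and PI16 at 0.17 log2 units. For INSR they were GALNT5 at 0.17, CENPV at 0.18 and the aminopeptidase NPEPPS at 0.18. IGF1R was followed most closely by CHID1 at 0.074, CCDC167 at 0.080 and the mitochondrial glutamate carrier SLC25A22 at 0.084. IGF1 was followed by RAP1GAP3 at 0.12, ATP6V1B2 (a subunit of the vacuolar proton pump) at 0.13 and KYAT3 at 0.14. RAP1GAP3, at 2.43 to 3.94, and KYAT3, at 1.61 to 3.34, stayed under 4 on every array, as did IGF1. TP53I11 was under 4 on all arrays outside set A, at 1.38 to 1.83. GCRMA compresses differences at that level. These are descriptions over the same 9 arrays and share their division into sets.

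A wider list of the pathway had 57 of 71 genes measured, and none of the 57 was called in any comparison by title. In DMIOA+20S against control, 31 of the 57 had a difference above 0 with a median of 0.01, beside 0.01 over all probe sets, and at an unadjusted limma p under 0.05 there were 5 higher and 2 lower, 12.3% of the list beside 10.1% of all probe sets. The higher ones were STC2 at 3.09, PIK3R1 at 1.43, GHR at 1.04, STAT5A at 0.77 and RHEB at 0.35, and the lower ones FOXO1 at -1.36 and the kinase GSK3A at -0.48, where RHEB, the activator of mTOR, and GSK3A are named after their values were seen. In DMIOA+20S against DMIOA, 30 were above 0 with a median of 0.01. At that level 0 were higher and 1 of the 57, GSK3A at -0.38, was lower, beside 2.86% of all probe sets in either direction. In DMIOA against control, 31 were above 0 with a median of 0.03, and 0 passed that level in either direction, beside 2.35% of all probe sets. By closest set, 2 of the 57 stood at least 1 log2 unit above the other arrays in set A (3.51%) and 3 as far below (5.26%). Over all probe sets these shares were 1.82% and 1.2%, and among the brighter ones 5.28% and 3.65%. The 57 genes were not filtered by level and include dim ones. Groups did not overlap in DMIOA+20S against control for 9 of the 57 genes, 15.8% of the list beside 13.5% of all probe sets.

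Among the 57 genes, the largest gap between set A and the other arrays belonged to STC2, a glycoprotein that in mammals inhibits the IGF-releasing protease PAPPA. STC2 read 10.09, 10.37 and 9.71 on DMIOA+20S arrays 1 to 3, 5.75, 10.23 and 9.21 on DMIOA arrays 1 to 3, and 5.94, 5.40 and 9.55 on control arrays 1 to 3. It was thus low on the 3 set A arrays, 3.27 below the lowest other array, and all DMIOA+20S arrays exceeded all control arrays. These 2 groups did not overlap, in either direction, for 9 of the 57 genes, 15.8% beside 13.5% of all probe sets. The DMIOA+20S minus control difference was 3.09, with a limma adjusted p of 0.49. The separation was narrow, with 9.71 on DMIOA+20S 3 and 9.55 on control 3, and the difference rested on control 1 and control 2. PAPPA itself, dim at 2.38 to 4.56, was also lowest on the set A arrays, with 2.38 on DMIOA 1, 2.72 on control 1 and 2.43 on control 2.

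Other binding proteins had other patterns than IGFBP7. IGFBP4, an IGF inhibitor in most settings, read 8.73, 8.49 and 7.69 on DMIOA+20S arrays 1 to 3, 8.56, 8.66 and 7.97 on DMIOA arrays 1 to 3, and 8.95, 8.81 and 7.99 on control arrays 1 to 3. It was lowest on the replicate 3 arrays of every title group, so set C and not set A was at the end of its range. IGFBP5, the neighbour of IGFBP2, was at 4.30 to 5.63 with the highest value on DMIOA+20S 1 and the lowest on DMIOA 1. Its set A values, 4.30 to 4.69, lay below the other arrays by 0.17.

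Downstream of the receptors, the PI3K genes differed in which sets were high. PIK3R1, the main regulatory subunit, read 10.19, 10.42 and 9.99 on DMIOA+20S arrays 1 to 3, 8.12, 10.23 and 9.64 on DMIOA arrays 1 to 3, and 8.22, 8.25 and 9.85 on control arrays 1 to 3, so set A was lower by at least 1.39. PIK3CD, the catalytic subunit typical of leukocytes, read 5.32, 5.19 and 5.91 on DMIOA+20S arrays 1 to 3, 7.61, 5.43 and 5.72 on DMIOA arrays 1 to 3, and 7.46, 7.48 and 5.83 on control arrays 1 to 3. Set A was therefore 1.55 above the rest for PIK3CD. It stood at least 1 log2 unit above the rest for 2 of the 13 macrophage and leukocyte markers, beside 1.82% of all probe sets. The part of these cells in the PIK3CD signal was not tested. PIK3CB ranged over 3.67 to 6.0 and PIK3R3 over 2.95 to 5.37, each highest on DMIOA 1. IRS2, a receptor substrate related to IRS1, read 5.75, 5.55 and 6.69 on DMIOA+20S arrays 1 to 3, 4.96, 5.79 and 7.20 on DMIOA arrays 1 to 3, and 5.03, 5.23 and 6.67 on control arrays 1 to 3. It was highest on the replicate 3 arrays of every title group.

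The forkhead factors FOXO1 and FOXO3, which AKT holds inactive, were also high in different sets. FOXO1 read 6.71, 6.65 and 6.90 on DMIOA+20S arrays 1 to 3, 8.32, 6.59 and 7.22 on DMIOA arrays 1 to 3, and 8.74, 8.61 and 7.0 on control arrays 1 to 3, with set A 1.10 above the rest. FOXO3 was 9.32 to 9.40 on the set A arrays and 10.27 to 10.72 on the others.

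Feedback inhibitors and the growth hormone branch made up the last group. SOCS1, an inhibitor of cytokine and insulin receptor signalling, read 8.04, 7.59 and 8.43 on DMIOA+20S arrays 1 to 3, 4.22, 7.72 and 8.38 on DMIOA arrays 1 to 3, and 4.85, 4.22 and 8.42 on control arrays 1 to 3. Its set A values lay 2.74 below the rest, and the related SOCS3 was 5.86 to 6.33 on set A against 7.11 to 8.19 elsewhere. GHR, the growth hormone receptor, read 6.91, 7.67 and 7.25 on DMIOA+20S arrays 1 to 3, 6.63, 6.96 and 5.94 on DMIOA arrays 1 to 3, and 5.95, 5.87 and 6.89 on control arrays 1 to 3. It was another of the 9 listed genes without overlap between DMIOA+20S and control (15.8% beside 13.5% of all probe sets). The separation was narrow, with 6.91 on DMIOA+20S 1 and 6.89 on control 3. The difference was 1.04 at a limma adjusted p of 0.49. STAT5A, which carries the growth hormone signal to the nucleus, was 5.46 to 5.88 on set A and 6.45 to 6.82 elsewhere. SH2B3, AKT1, RPS6KB1, HRAS and PTPN1 also had a range of at least 1 log2 unit, and set A stood apart by that much in none of them.

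**Figure D4:**
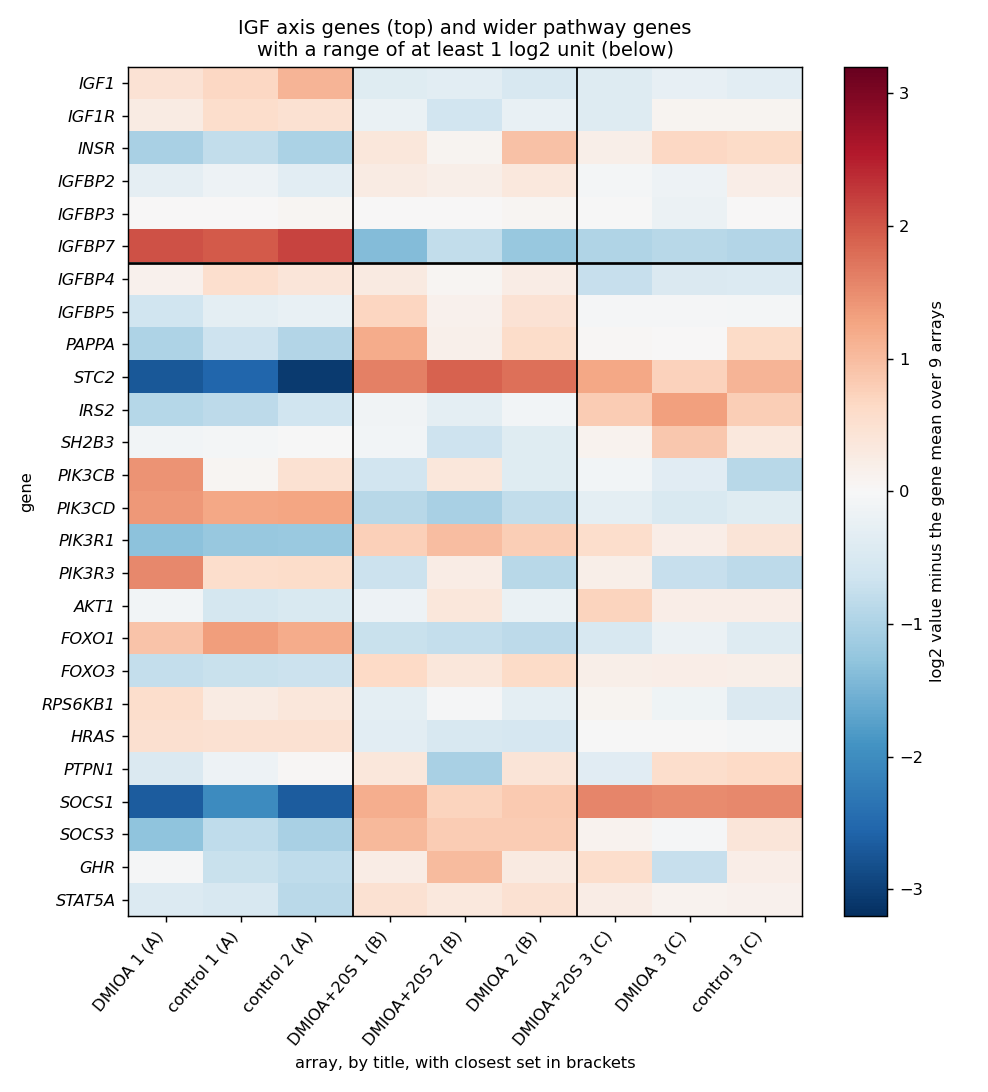
Log2 value minus the gene's mean over the 9 arrays for the 6 measured members (above the black line) and the 20 genes of the wider list with a range of at least 1 log2 unit, with arrays ordered by closest set. IGFBP7 (high in set A) and STC2 and SOCS1 (low) separate the 3 set A arrays from the rest, while IRS2 is highest in set C.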

How the data were processed

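RNA of chicken preadipocytes was hybridized to Affymetrix chicken arrays, 3 per title group. The authors ran GCRMA, whose version is not given in the sources used here, and deposited 1 normalized and background-corrected log2 level for each probe set. Dim levels are drawn to a floor by this method, and levels of different probe sets are not comparable. Of 38535 probe sets, 96 controls were left out and 38439 tested, of which 27168 had 1 symbol, 177 several and 11094 none. All 6 measured members matched a RefSeq gene ID. Title groups were compared using lmFit and eBayes over all 9 arrays (limma 3.58.1, R 4.3.3). Python 3.11.15 made summaries and plots. The limma fits were tested on simulated data with planted differences and independent noise on each array. Those data lacked the division of the arrays into sets, so they do not show how the fits behave under it. The number of arrays limits the precision.

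Each member was named by its 1-symbol probe set with the highest mean. Wider-list genes were named at a range of at least 1 log2 unit, and for each member with such a range its 3 most similar genes. Single markers were picked from the marker lists after their values were seen. Members and lists were chosen with earlier results of these data known. Alternatives were a low-value filter, quantile normalization, trended and robust variances, array weights, blocks for replicate and label wording, other probe set rules, the methods' t-test and leaving out arrays.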

Additional observations from a re-analysis of the deposited data

How the results depend on the processing

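No member was called under any alternative. Of the member results under the alternatives, 324 kept their direction and 12 turned round. Many of the 324 could not turn, because several alternatives leave the difference itself as it was. These were both blocks, the arrays of the comparison only, the methods' t-test, no minimum fold, trended and robust variances, and the low-value filter. The mean over probe sets could change INSR only. The 324 therefore do not measure how stable the directions were. Turned values were 0.00062 for IGFBP3 in DMIOA against control and -0.023 for IGFBP3 in DMIOA+20S against DMIOA with replicates 1 and 2 only, 0.0031 for IGFBP3 in DMIOA+20S against control after quantile normalization, and -0.38 for INSR in DMIOA+20S against DMIOA with array weights. Leaving out each array in turn gave, for DMIOA against control, -0.13 to 0.21 for IGFBP2 and -0.12 to 0.0081 for IGFBP3, and for DMIOA+20S against DMIOA, -0.0315 to 0.0939 for IGFBP3, -0.48 to 0.00965 for IGF1, -1.62 to 0.00965 for IGFBP7 and -0.59 to 0.40 for INSR. Sizes also moved by over 1.5 times with the direction kept. For example, the mean over probe sets put INSR at 0.11 in DMIOA against control and 0.22 in DMIOA+20S against control, and array weights put IGFBP7 at -2.35 in DMIOA against control and -0.32 in DMIOA+20S against DMIOA. The cause was not tested. The smallest adjusted p of a member was that of IGF1R with array weights in DMIOA+20S against control, 0.053.

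The 2 probe sets called in DMIOA+20S against control became 0 with the replicate block, with the label wording as a block, with replicates 1 and 2 only, with the 6 arrays of the comparison only, with the low-value filter, with trended and robust variances, with the mean over probe sets, with the methods' t-test after adjustment and without any one array (0 to 0). They became 1 after quantile normalization, and the methods' t-test before adjustment called 221 there, 5 in DMIOA+20S against DMIOA and 1 in DMIOA against control. Arrays of the same replicate number had deviations from the group means that correlated at -0.56 to 0.70 over 9 pairs, and other pairs at -0.83 to 0.75 over 18, so the numbers were not treated as pairing the arrays. With the replicate block IGF1R in DMIOA+20S against control had a limma adjusted p of 0.38. Its difference of -0.80 cannot change under that block. IGF1 and IGFBP3 did not pass the low-value filter and have no value under it.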
